A study of Callithrix jacchus with 6 samples.

Results

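RORB CUX2 neurons are the cell barcodes that carried transcripts of RORB (ENSCJAG00000001216), a nuclear receptor, together with transcripts of CUX2 (ENSCJAG00000011694), a homeodomain transcription factor. A barcode was taken when it held at least 3000 unique molecular identifiers (UMIs) in all, at least 3 of RORB, at least 2 of CUX2, at most 1 of ZBTB20 and at most 1 of GAD1 and GAD2 together. The rule found 499 of 46582 barcodes, which is 1.07% of all; 27684 barcodes held at least 3000 UMIs. The barcodes came from 6 droplet libraries of the hippocampi of common marmosets (Callithrix jacchus), aged animals by the series title, of which 3 were prepared after 6 h of sevoflurane, an inhaled anaesthetic, and 3 control libraries after 6 h of oxygen. The tissue was dissociated with collagenase, stored frozen as a cell suspension and profiled with 10x Genomics 3′ chemistry. The labels do not say whether the 3 replicates of a group are separate animals, so every p-value below measures the spread between these libraries, which may be technical. RORB CUX2 neurons were set against other neurons of the same libraries, and no effect of sevoflurane was tested.

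Glutamatergic neurons of the neocortex lie in layers, and their transcription factors follow that arrangement. In mouse and human cortex CUX2 and CUX1 mark neurons of the upper layers, and RORB marks layer 4 and its neighbours, whereas FEZF2 and BCL11B mark deep-layer neurons that project below the cortex. ZBTB20 is a transcription factor of hippocampal pyramidal and dentate granule neurons, PROX1 is a granule neuron factor, and GAD1 and GAD2 encode the GABA-synthesising enzymes of inhibitory neurons.

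RORB CUX2 neurons were spread very unevenly over the libraries. Sevoflurane replicates 1, 2 and 3 held 21, 3 and 370 of them, and control replicates 1, 2 and 3 held 86, 2 and 17. Sevoflurane replicate 3 alone gave 74.1% of all RORB CUX2 neurons and control replicate 1 gave 17.2%, so that 43 came from the other 4 libraries. As shares of the barcodes with at least 3000 UMIs, the values were 0.457%, 0.0633% and 7.47% in the sevoflurane libraries and 1.78%, 0.0487% and 0.383% in the control libraries. The exact 95% Clopper-Pearson interval ran from 6.75% to 8.24% in sevoflurane replicate 3 and from 1.42% to 2.19% in control replicate 1, and covers counting error only. The ranges of the sevoflurane and control libraries overlapped, with 1 high library in each group.

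**Figure D1:**
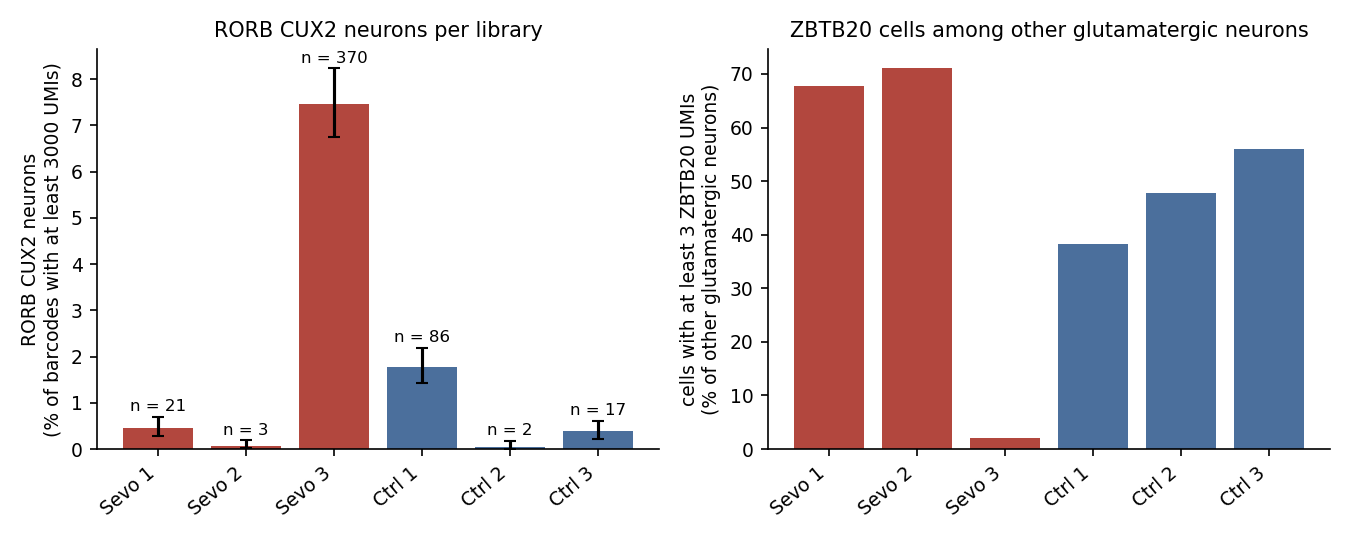
Left, RORB CUX2 neurons as a percentage of barcodes with at least 3000 UMIs in each of the 6 libraries (sevoflurane in red, control in blue), with exact 95% binomial intervals and the number of cells above each bar. Right, the percentage of the other glutamatergic neurons with at least 3 ZBTB20 UMIs in the same libraries. Sevoflurane replicate 3 has the highest share on the left (7.47%) and the lowest on the right (1.99%).

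The library with most RORB CUX2 neurons also stood apart in its other neurons. Other glutamatergic neurons were taken as the remaining barcodes with at least 3 UMIs summed over SLC17A7, SLC17A6, SV2B, NEUROD2 and NEUROD6, at most 1 of GAD1 and GAD2, and at most 2 summed over glial and vascular genes; 10207 barcodes met this. At least 3 ZBTB20 UMIs were found in 67.8%, 71.1% and 1.99% of these neurons in sevoflurane replicates 1, 2 and 3 and in 38.3%, 47.8% and 56.0% in control replicates 1, 2 and 3. Their RORB level was 315 CPM (UMIs of the gene per 1000000 UMIs of the summed cells) in sevoflurane replicate 3, against 9.56 to 37.7 CPM in the other 5 libraries. ZBTB20 was thus scarcest in the library that supplied most RORB CUX2 neurons, and the part of the dissected tissue, the animal and the library cannot be told apart there. Depth was similar across libraries, with 7103 to 8577 barcodes, 41164947 to 47886816 UMIs in total and 3269 to 4843 median UMIs per barcode; 13 to 27 barcode sequences were shared between the 2 libraries of each of the 15 pairs.

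The genes of the rule had the following levels, which chose the cells and carry no test. The median RORB CUX2 neuron held 5, 3 and 7 RORB UMIs in the sevoflurane libraries and 6, 4 and 4 in the control libraries, and the highest single cell held 47. RORB averaged 735 CPM in RORB CUX2 neurons of sevoflurane replicate 1, 747 CPM in those of sevoflurane replicate 3 and 674 CPM in those of control replicate 1, and CUX2 averaged 551, 629 and 577 CPM in the same libraries. No ZBTB20 UMI was found in 427 of the 499 cells, and no GAD1 or GAD2 UMI in 441. Just inside the rule, 91 cells held exactly 3 RORB UMIs and 55 exactly 2 CUX2 UMIs. Just outside it, 140 cells met the other limits with exactly 2 RORB UMIs, 141 with exactly 1 CUX2 UMI and 1281 with no CUX2 UMI.

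As a group, RORB CUX2 neurons exceeded GABAergic neurons in a glutamatergic gene that the rule did not use, counted after each cell was thinned to 3000 UMIs. SLC17A7, the vesicular glutamate transporter VGLUT1, was found in 52.4%, 33.8%, 36.0% and 52.9% of RORB CUX2 neurons of sevoflurane replicates 1 and 3 and control replicates 1 and 3. The share of GABAergic neurons with a SLC17A7 UMI at that depth, which serves as the background from free RNA, was 14.0% to 21.8% over the 6 libraries. SLC17A7 was above the GABAergic background in each of the 4 libraries with at least 10 RORB CUX2 neurons. Before thinning, 168 of the 499 cells held fewer than 3 UMIs summed over SLC17A7, SLC17A6, SV2B, NEUROD2 and NEUROD6. Of these, 131 were in sevoflurane replicate 3, so the identity of each single cell was not shown. Median depth before thinning was 8305, 10697.5, 11137 and 9074 UMIs in RORB CUX2 neurons of these libraries and 6626.5 to 9138.5 UMIs in GABAergic neurons of all 6.

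Deep-layer and granule factors were scarce in the same thinned cells. BCL11B was found in 4.76%, 2.43%, 5.81% and 0% of RORB CUX2 neurons of sevoflurane replicates 1 and 3 and control replicates 1 and 3, against 8.50% to 39.0% of other glutamatergic neurons over the 6 libraries. FEZF2 was found in 0%, 0.541%, 3.49% and 0% of RORB CUX2 neurons of these libraries, against 7.25% to 15.5% of other glutamatergic neurons. The FEZF2 shares in RORB CUX2 neurons lie at or near the background of 1.90% to 4.00% in GABAergic neurons. PROX1 was found in 0%, 2.70%, 0% and 0% of RORB CUX2 neurons, a level given without a share in other neurons beside it. TBR1, a cortical glutamatergic transcription factor, was found in 4.76%, 11.6%, 8.14% and 0%, against 1.00% to 4.00% of GABAergic neurons. It was picked after its values were seen from a list of 23 cortical factors. Of the 19 tested against other glutamatergic neurons, 0 were called higher and 2 lower, so TBR1 does not set these cells apart from them.

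RORB CUX2 neurons were not 1 uniform population over the libraries, and the genes in this paragraph were picked after their values were seen. TSHZ2, a zinc-finger factor, had 1275 CPM in RORB CUX2 neurons of sevoflurane replicate 1 and 104 CPM in those of sevoflurane replicate 3, and 202 CPM in those of control replicate 1 and 1937 CPM in those of control replicate 3. At least 3 TSHZ2 UMIs were found in 13 of 21, 3 of 3 and 48 of 370 RORB CUX2 neurons of the sevoflurane libraries and in 21 of 86, 0 of 2 and 16 of 17 of the control libraries. TSHZ2 was thus common in the RORB CUX2 neurons of 2 sevoflurane libraries and 1 control library with few such cells, and less common in the libraries with most. SEMA3E, a secreted semaphorin, followed the same split, with 212 and 13.7 CPM in sevoflurane replicates 1 and 3 and 15.8 and 284 CPM in control replicates 1 and 3. TOX, a DNA-binding protein, had 312 and 33.2 CPM in sevoflurane replicates 1 and 3 and 40.5 and 625 CPM in control replicates 1 and 3. WLS, the carrier that brings Wnt proteins to the cell surface, had the opposite order, with 61.3 and 235 CPM in sevoflurane replicates 1 and 3 and 134 and 5.68 CPM in control replicates 1 and 3. Sevoflurane replicate 1 thus enters the tests below with TSHZ2-rich cells, unlike sevoflurane replicate 3 and control replicate 1. Of the 2 RORB CUX2 neurons of control replicate 2, neither had a SLC17A7 UMI after thinning. Together they held 2761 CPM of ERBB4, a receptor prominent in GABAergic neurons. Before thinning, SLC17A7 stood at 113 CPM in 1 of these 2 cells and at 0 CPM in the other. Both cells then met the limits set for the other glutamatergic neurons, and neither held a GAD1 or GAD2 UMI.

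**Figure D2:**
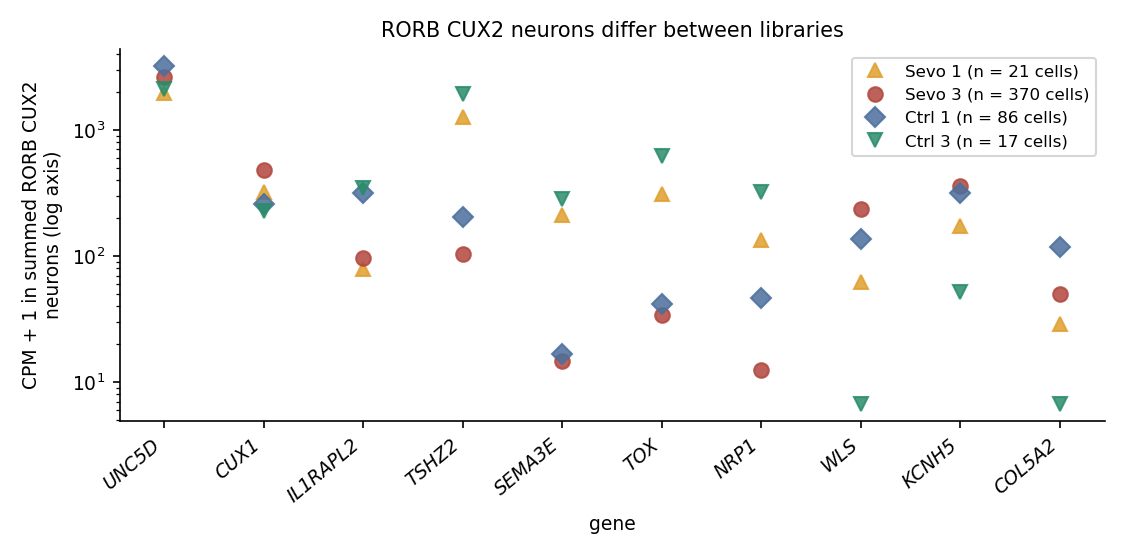
Levels of 10 genes in summed RORB CUX2 neurons (CPM + 1, log axis) in the 4 libraries with at least 10 such cells, 1 symbol per library. UNC5D and CUX1 lie close together, whereas TSHZ2, SEMA3E, TOX and NRP1 are high in sevoflurane replicate 1 and control replicate 3 and low in sevoflurane replicate 3 and control replicate 1.

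Within the 2 libraries with most RORB-positive cells, the profile changed along CUX2, as seen when barcodes with at least 3 RORB UMIs and the same ZBTB20 and GAD limits were sorted by their CUX2 UMIs. This is a description, since CUX2 chose the cells and depth rose along it, from a median of 6166 UMIs in cells with no CUX2 UMI of sevoflurane replicate 3 to 13529 UMIs in those with 10 or more. CUX1, the paralog of CUX2, had 214 CPM in the 907 cells with none and 443 CPM in the 101 cells with 10 or more. HS3ST4, a heparan sulfate sulfotransferase of deep-layer neurons, had 974 CPM with none and 57.3 CPM with 10 or more. TSHZ2 had 622 CPM with none and 61.6 CPM with 10 or more, and IL1RAPL2, a gene of layer 4 neurons, 553 and 50.3 CPM. In control replicate 1 the same ends held 181 and 250 CPM of CUX1, 763 and 45.1 CPM of HS3ST4, 522 and 76.4 CPM of TSHZ2 and 1321 and 118 CPM of IL1RAPL2, from 108 and 19 cells. In both libraries HS3ST4, TSHZ2 and IL1RAPL2 were thus lower, and CUX1 higher, at the CUX2-rich end. UNC5D, a netrin receptor, was high throughout, with 2070 CPM in cells with none and 2836 CPM in those with 10 or more in sevoflurane replicate 3, and 2362 and 3507 CPM in control replicate 1.

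**Figure D3:**
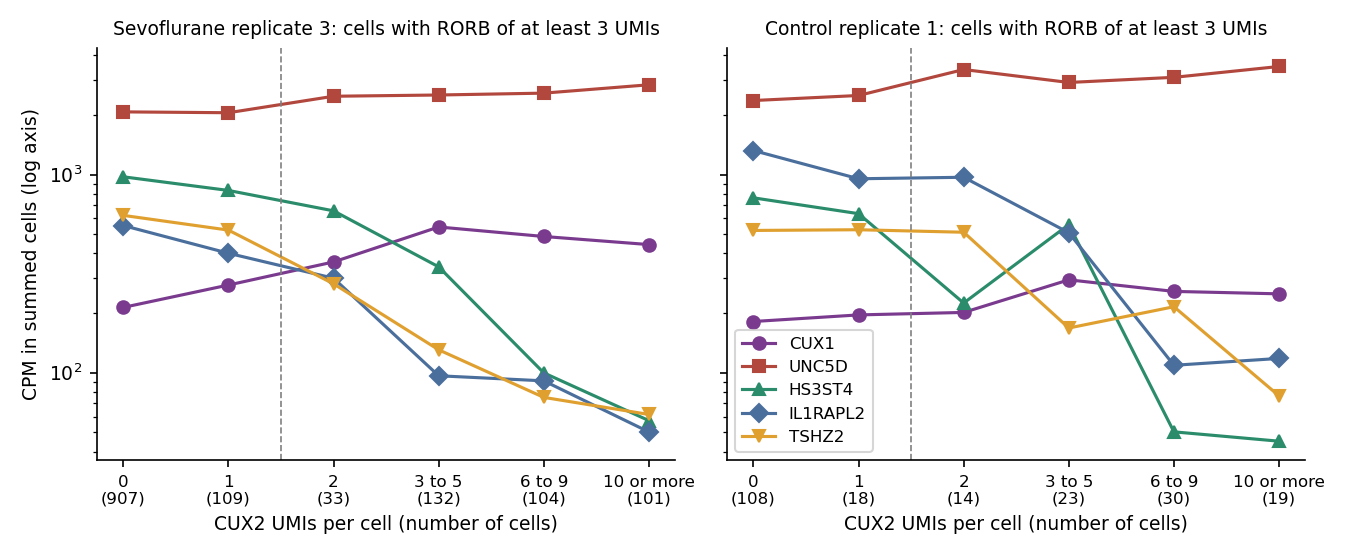
CPM (log axis) of 5 genes in barcodes with at least 3 RORB UMIs, grouped by CUX2 UMIs per cell, with the number of cells in brackets, for sevoflurane replicate 3 (left) and control replicate 1 (right). The dashed line marks the limit of 2 CUX2 UMIs. HS3ST4, IL1RAPL2 and TSHZ2 are lower and CUX1 is higher at the right end, where HS3ST4 is at 57.3 and 45.1 CPM.

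The main comparison asked which genes distinguish RORB CUX2 neurons from the other glutamatergic neurons of the same library. Counts were summed per library and class, and the 3 libraries with at least 20 cells of each class entered an edgeR quasi-likelihood fit with the library as a block: sevoflurane replicates 1 and 3 and control replicate 1. At a Benjamini-Hochberg adjusted p under 0.05, 77 genes (0.523% of the 14715 tested) were higher and 154 (1.05%) were lower in RORB CUX2 neurons, 231 in all (1.57%). All genes were measured in the cells that RORB and CUX2 chose, so genes that go with RORB and CUX2 from cell to cell were drawn in with them. The rule also limited ZBTB20 to at most 1 UMI, a limit that the other glutamatergic neurons did not have. Genes that go with ZBTB20 from cell to cell were thus held down with it. Without sevoflurane replicate 1 the fit called 108 genes, of which 90 were among the 231, and without sevoflurane replicate 3 it called 585, of which 208 were among them. Without control replicate 1, 8 of the genes named below lost their call, each given with its adjusted p. The log2 ratios of sevoflurane replicate 3 were often the smallest, and the other glutamatergic neurons of that library held RORB at 315 CPM and CUX2 at 181 CPM.

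COL5A2, UNC5D and FBN2 were among the genes highest in RORB CUX2 neurons. COL5A2 (ENSCJAG00000005283), a chain of type V collagen, had 27.8, 49.3 and 118 CPM in RORB CUX2 neurons of sevoflurane replicates 1 and 3 and control replicate 1, against 11.9, 9.97 and 10.5 CPM in other glutamatergic neurons of the same 3 libraries. All 3 values lay above the range of the other glutamatergic neurons (log2 fold change 2.60, SE 0.33, edgeR adjusted p = 0.00243). In control replicate 3, which was outside the fit, COL5A2 stood at 5.68 CPM in RORB CUX2 neurons, from 1 UMI, and at 5.79 CPM in other glutamatergic neurons. UNC5D (ENSCJAG00000002818) had 1955, 2638 and 3205 CPM in RORB CUX2 neurons and 298, 1148 and 952 CPM in other glutamatergic neurons of the libraries in the fit. The groups did not overlap (log2 fold change 1.80, SE 0.25, edgeR adjusted p = 0.00424), and in control replicate 3 the values were 2108 CPM in RORB CUX2 neurons and 790 CPM in other glutamatergic neurons. FBN2, which encodes a fibrillin of elastic microfibrils, had 27.8, 31.0 and 172 CPM in RORB CUX2 neurons and 3.28, 16.2 and 41.5 CPM in other glutamatergic neurons. FBN2 was higher within each library while the ranges overlapped (log2 fold change 1.63, edgeR adjusted p = 0.0119), and the call was lost without sevoflurane replicate 1 (adjusted p = 0.0646) or control replicate 1 (0.155).

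The remaining genes named as highest in RORB CUX2 neurons had varied roles. HHAT (ENSCJAG00000000310), the acyltransferase that attaches palmitate to hedgehog proteins, had 178, 221 and 67.1 CPM in RORB CUX2 neurons of sevoflurane replicates 1 and 3 and control replicate 1, against 14.9, 66.2 and 22.2 CPM in other glutamatergic neurons. Every RORB CUX2 value was above every value of the other neurons, by a narrow margin between control replicate 1 and sevoflurane replicate 3 (log2 fold change 2.10, SE 0.28, edgeR adjusted p = 0.00314). ROS1, a receptor tyrosine kinase, had 44.6, 135 and 34.6 CPM in RORB CUX2 neurons and 17.5, 45.6 and 8.77 CPM in other glutamatergic neurons, and was higher within each library (log2 fold change 1.63, SE 0.21, edgeR adjusted p = 0.00287). No ROS1 UMI was found in the 17 RORB CUX2 neurons of control replicate 3. HTR2A, the serotonin 2A receptor, had 22.3, 123 and 163 CPM in RORB CUX2 neurons and 5.41, 72.2 and 33.3 CPM in other glutamatergic neurons. HTR2A was called in the fit of 3 libraries (log2 fold change 1.53, edgeR adjusted p = 0.0202) but not without sevoflurane replicate 1 (adjusted p = 0.121) or control replicate 1 (0.275). PDZRN3, a ubiquitin ligase, was also higher (log2 fold change 1.74, edgeR adjusted p = 0.0112), as were the membrane protein PARM1 (1.59, adjusted p = 0.00218), the ankyrin-repeat gene ANKFN1 (2.16, adjusted p = 0.00566), LHFPL6 (1.60, adjusted p = 0.0302) and WLS (1.59, adjusted p = 0.0135). Of these 5, ANKFN1, LHFPL6 and WLS lost their call without sevoflurane replicate 1, with adjusted p of 0.0583, 0.115 and 0.107.

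BCL11B, EYA1, SGK1 and ROR1 were among the genes lowest in RORB CUX2 neurons. BCL11B, a zinc-finger factor of subcerebral projection and hippocampal neurons, had 11.1, 13.7 and 21.7 CPM in RORB CUX2 neurons and 174, 47.8 and 146 CPM in other glutamatergic neurons, with no overlap (log2 fold change -2.43, SE 0.29, edgeR adjusted p = 0.00218). EYA1, a phosphatase and transcriptional coactivator, had 0, 3.37 and 3.95 CPM in RORB CUX2 neurons and 88.2, 17.9 and 37.1 CPM in other glutamatergic neurons, again with no overlap (log2 fold change -2.95, SE 0.37, edgeR adjusted p = 0.00243). SGK1, the serum- and glucocorticoid-regulated kinase, had 33.4, 15.6 and 26.7 CPM in RORB CUX2 neurons and 318, 63.1 and 213 CPM in other glutamatergic neurons. The SGK1 groups did not overlap (log2 fold change -2.64, SE 0.26, edgeR adjusted p = 0.00162). ROR1, a receptor of the Wnt5a pathway, had 55.7, 14.7 and 17.8 CPM in RORB CUX2 neurons and 188, 71.7 and 232 CPM in other glutamatergic neurons, and the groups did not overlap (log2 fold change -2.70, SE 0.29, edgeR adjusted p = 0.00215). These 4 genes were also called without each of the 3 libraries. In sevoflurane replicate 1 the RORB CUX2 values came from 2 UMIs of BCL11B and 0 UMIs of EYA1.

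The other genes named as lowest began with TNFAIP8L3 and ABI3BP. TNFAIP8L3 (ENSCJAG00000065209), a phosphoinositide transfer protein, had the smallest adjusted p of the genes named here, with 11.1, 2.16 and 7.90 CPM in RORB CUX2 neurons and 115, 16.8 and 76.0 CPM in other glutamatergic neurons (log2 fold change -3.18, SE 0.26, edgeR adjusted p = 0.000774). Its ranges did not overlap, and the ratio was similar in the 3 libraries, though the RORB CUX2 value of sevoflurane replicate 1 came from 2 UMIs. ABI3BP, an extracellular matrix protein, had 39.0, 10.1 and 8.89 CPM in RORB CUX2 neurons and 381, 51.3 and 181 CPM in other glutamatergic neurons (log2 fold change -3.19, SE 0.32, edgeR adjusted p = 0.00162). PDZRN4 was lower by a log2 fold change of -2.80 (edgeR adjusted p = 0.00218) and ADAMTS3, a procollagen-cleaving protease, by -2.62 (adjusted p = 0.00243). SLC24A3, a sodium/calcium/potassium exchanger, had 33.4, 19.95 and 72.1 CPM in RORB CUX2 neurons and 1544, 64.9 and 933 CPM in other glutamatergic neurons. The SLC24A3 ranges overlapped, with a low level in the other neurons of sevoflurane replicate 3, and the call (log2 fold change -3.37, edgeR adjusted p = 0.00579) did not hold without sevoflurane replicate 1 (adjusted p = 0.0543). The same held for the mechanosensitive channel PIEZO2 (-3.44, adjusted p = 0.00658; 0.165 without that library), the transmembrane collagen COL25A1 (-2.63, adjusted p = 0.00559; 0.0892) and the scaffold IQGAP2 (-2.51, adjusted p = 0.00648; 0.0774).

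**Figure D4:**
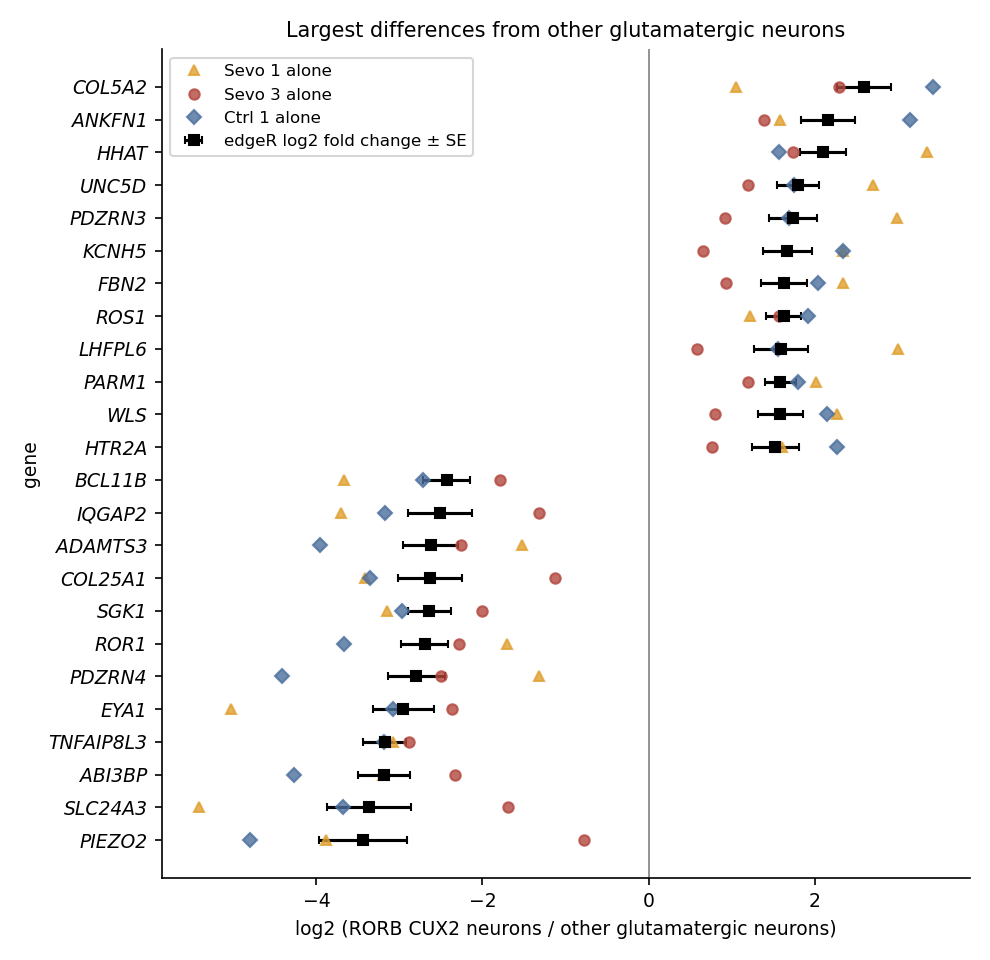
The 12 genes named as higher and the 12 named as lower in RORB CUX2 neurons. Squares with bars give the edgeR log2 fold change of RORB CUX2 neurons over other glutamatergic neurons with its SE, and coloured symbols the ratio in each of the 3 libraries alone. All symbols of a gene lie on 1 side of 0, which was a condition for naming these genes. Sevoflurane replicate 3 lies nearest to 0 for most genes, as for PIEZO2 and SLC24A3.

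Markers of cortical layers gave a mixed picture. Of 15 upper-layer genes tested, 1 was higher and 2 were lower in RORB CUX2 neurons, against 0.523% and 1.05% of all genes tested. Their median log2 fold change was -0.18, against -0.04 over all genes tested. Summed over 16 upper-layer genes, the level was 980, 1681 and 1035 CPM in RORB CUX2 neurons of sevoflurane replicates 1 and 3 and control replicate 1, against 1101, 1678 and 1245 CPM in other glutamatergic neurons. The sum was about equal in sevoflurane replicate 3 and lower in RORB CUX2 neurons of the other 2 libraries. CUX1 was the higher one, with 323, 480 and 257 CPM in RORB CUX2 neurons and 112, 284 and 164 CPM in other glutamatergic neurons (log2 fold change 0.87, edgeR adjusted p = 0.0427; 0.101 without sevoflurane replicate 1 and 0.105 without control replicate 1). CDH9 and MDGA1, adhesion genes found in upper layers, were the lower ones, with log2 fold changes of -1.93 (adjusted p = 0.00218) and -1.90 (adjusted p = 0.00417). LAMP5, a marker of the most superficial neurons, stood at 11.1, 9.62 and 1.97 CPM in RORB CUX2 neurons and 10.3, 7.83 and 7.06 CPM in other glutamatergic neurons (edgeR adjusted p = 1.00). Of 15 layer 4 genes tested, 2 were higher and 1 was lower, with a median of 0.40. PLCH1, a phospholipase C, had 39.0, 47.6 and 82.0 CPM in RORB CUX2 neurons and 11.4, 15.1 and 10.4 CPM in other glutamatergic neurons (log2 fold change 2.16, SE 0.28, edgeR adjusted p = 0.00287). The PLCH1 groups did not overlap, and in control replicate 3 the values were 45.5 CPM in RORB CUX2 neurons and 8.50 CPM in other glutamatergic neurons. NTNG1, a netrin-G of axons, was higher (1.14, adjusted p = 0.0390; 0.246 without control replicate 1) and CLSTN2, a synaptic calsyntenin, was lower (-1.11, adjusted p = 0.0177; 0.0665 without sevoflurane replicate 3 and 0.245 without control replicate 1). TSHZ2 was not called over the 3 libraries (0.13, adjusted p = 1.00), with log2 ratios of 3.35 in sevoflurane replicate 1 and -1.25 and -0.90 in sevoflurane replicate 3 and control replicate 1; without sevoflurane replicate 1 its adjusted p was 0.0357.

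Each deep-layer and hippocampal marker that was called was lower, while summed levels varied between libraries. Of 13 corticothalamic and layer 6b genes tested, 0 were higher and 2 were lower, against 0.523% and 1.05% of all genes tested. HS3ST4 (ENSCJAG00000020752) had 334, 204 and 191 CPM in RORB CUX2 neurons and 936, 1120 and 1329 CPM in other glutamatergic neurons, with no overlap (log2 fold change -2.36, SE 0.24, edgeR adjusted p = 0.00162). FEZF2 had 11.1, 1.92 and 8.89 CPM in RORB CUX2 neurons and 53.7, 33.0 and 32.9 CPM in other glutamatergic neurons (log2 fold change -3.05, SE 0.39, edgeR adjusted p = 0.00243). Both genes were called without each library in turn. The median over the 13 genes was -0.61. Summed over 16 genes of this list, the level was 3754, 1570 and 1365 CPM in RORB CUX2 neurons of sevoflurane replicates 1 and 3 and control replicate 1, against 2302, 2719 and 3280 CPM in other glutamatergic neurons, and 3886 CPM in RORB CUX2 neurons of control replicate 3, against 2891 CPM in other glutamatergic neurons there. The sum was thus higher in RORB CUX2 neurons of the libraries with TSHZ2-rich cells and lower in the other 2; TRPM3, a cation channel, gave 1816 CPM of it in those of sevoflurane replicate 1 and 1977 CPM in those of control replicate 3. Of 13 layer 5 genes 2 were lower, BCL11B and ETV1 (-1.54, adjusted p = 0.0254; 0.0991 without sevoflurane replicate 1), and of 9 genes of layer 6 intratelencephalic and claustrum neurons 2 were lower, THEMIS (-2.42, adjusted p = 0.00366) and GNG2 (-1.29, adjusted p = 0.0221; 0.0668 without sevoflurane replicate 1). THEMIS, a signalling adaptor, stood at 64.6 CPM in other glutamatergic neurons of sevoflurane replicate 3 and at 5.19 and 4.95 CPM in those of sevoflurane replicate 1 and control replicate 1, and was not called without sevoflurane replicate 3 (adjusted p = 0.658). The summed layer 5 list had 1626, 324 and 423 CPM in RORB CUX2 neurons of sevoflurane replicates 1 and 3 and control replicate 1, against 604, 353 and 444 CPM in other glutamatergic neurons, and 1287 CPM of the high value came from HTR2C, the serotonin 2C receptor.

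Of 17 hippocampal pyramidal and subicular genes tested, 0 were higher and 4 were lower in RORB CUX2 neurons, against 0.523% and 1.05% of all genes tested. A negative log2 fold change was found for 16 of the 17 (median -1.28). ZFPM2, a cofactor of GATA proteins, had 362, 52.9 and 94.8 CPM in RORB CUX2 neurons and 556, 243 and 717 CPM in other glutamatergic neurons; it was lower within each library while the ranges overlapped (log2 fold change -2.03, SE 0.32, edgeR adjusted p = 0.00740). MAN1A1, a mannosidase of the Golgi, was lower with a log2 fold change of -1.73 (adjusted p = 0.00218). CHST8, a sulfotransferase, was lower by -1.35 (adjusted p = 0.0180; 0.0918 without sevoflurane replicate 1), and ETV1 was the fourth. Summed over the list, hippocampal genes reached 2629 and 2390 CPM in RORB CUX2 neurons of sevoflurane replicates 1 and 3 and 2691 CPM in those of control replicate 1, against 6794, 2579 and 5405 CPM in other glutamatergic neurons. The summed level thus differed little in sevoflurane replicate 3 and clearly in the other 2 libraries. At least 3 ZBTB20 UMIs were held by 1.99% of the other neurons of sevoflurane replicate 3. The share was 67.8% in sevoflurane replicate 1 and 38.3% in control replicate 1. The rule limited ZBTB20 in RORB CUX2 neurons alone, and the part of that limit in these differences was not tested. Of 12 dentate granule genes 3 were lower: BCL11B, STXBP6 (-1.79, adjusted p = 0.00218) and DOCK10 (-1.67, adjusted p = 0.0240; 0.212 without sevoflurane replicate 1). Of 6 thalamic genes tested 0 were called by edgeR and 0 by DESeq2. An unadjusted edgeR p under 0.05 was found for 1 of them, against 1361 of all 14715 genes tested. Their median log2 fold change was 0.62, with 5 of the 6 positive; against the HS3ST4 neurons described below it was 1.08 over 5 genes tested. Summed over 9 thalamic genes, the level was 139, 121 and 95.8 CPM in RORB CUX2 neurons and 53.0, 106 and 60.1 CPM in other glutamatergic neurons, higher in RORB CUX2 neurons of each of the 3 libraries. The list includes SLC17A6, which helped choose the other glutamatergic neurons. The lists were chosen with earlier results of these data known, and their counts are descriptions.

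**Figure D5:**
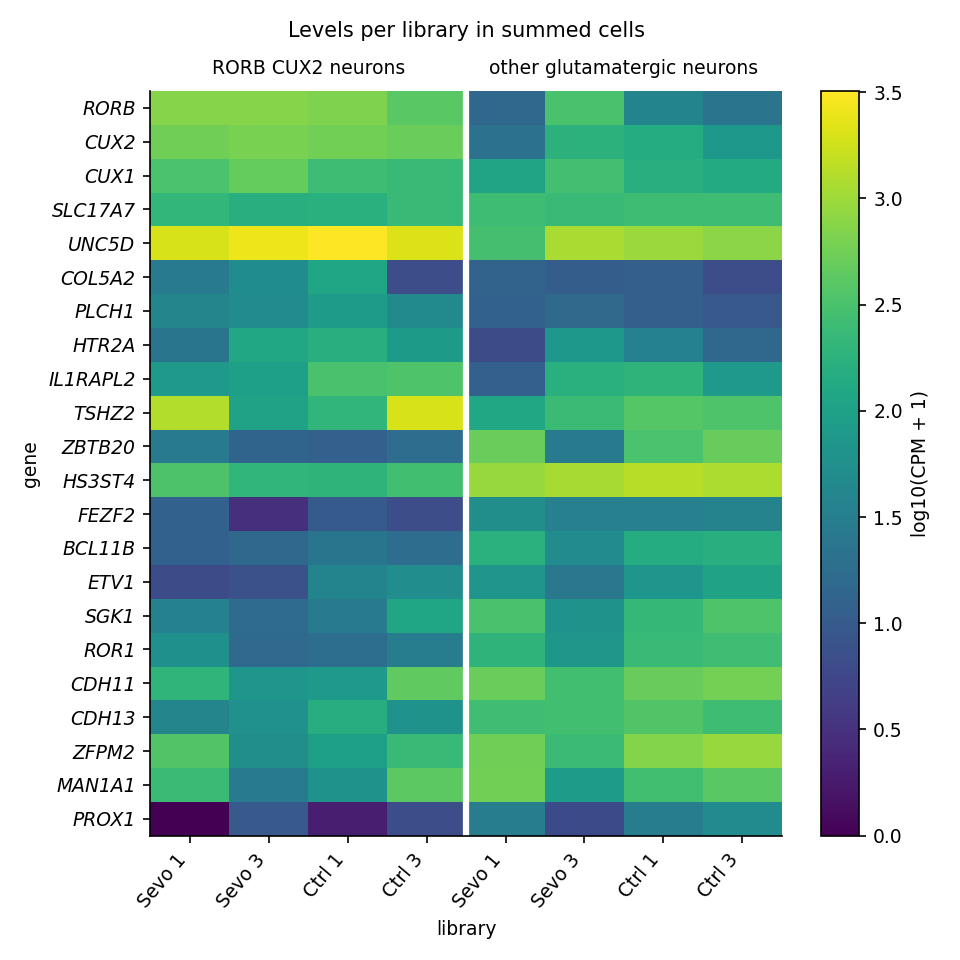
Levels of 22 genes as log10(CPM + 1) in summed RORB CUX2 neurons (left block) and other glutamatergic neurons (right block) of sevoflurane replicates 1 and 3 and control replicates 1 and 3. HS3ST4, FEZF2, BCL11B and ZBTB20 are darker on the left, UNC5D is brighter on the left, and TSHZ2 is bright in sevoflurane replicate 1 and control replicate 3 of the left block.

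Cortical transcription factors beyond the rule differed in few members. Of 19 tested, 0 were higher and 2 were lower in RORB CUX2 neurons, against 0.523% and 1.05% of all genes tested. The lower ones were ZNF804A (log2 fold change -2.02, edgeR adjusted p = 0.0278) and BACH2 (-1.02, adjusted p = 0.0187). Both lost the call without sevoflurane replicate 1 (adjusted p of 0.0661 and 0.0546). RORA, the paralog of RORB, had 1543, 1109 and 1076 CPM in RORB CUX2 neurons and 694, 955 and 671 CPM in other glutamatergic neurons (0.60, adjusted p = 0.262).

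Adhesion and guidance genes differed in both directions. Of 20 cadherins tested, 1 was higher and 6 were lower in RORB CUX2 neurons, against 0.523% and 1.05% of all genes tested. Their median log2 fold change was -0.24. CDH11, an adhesion molecule of the classical type, had 195, 69.5 and 75.0 CPM in RORB CUX2 neurons and 503, 279 and 498 CPM in other glutamatergic neurons, with no overlap (log2 fold change -2.14, SE 0.23, edgeR adjusted p = 0.00218). CDH13, a cadherin anchored by a lipid tail, had 39.0, 58.9 and 153 CPM in RORB CUX2 neurons and 265, 278 and 361 CPM in other glutamatergic neurons (-1.97, SE 0.26, adjusted p = 0.00342). CDH9, CDH6, PCDH15 and PCDH17 were the other lower members and CDH20 the higher one (1.06, adjusted p = 0.0261), of which CDH6 and CDH20 were not called without sevoflurane replicate 1 (adjusted p of 0.0582 and 0.0654) or without sevoflurane replicate 3 (0.951 and 0.136) or control replicate 1 (0.0996 and 0.380). Of 43 axon guidance genes 3 were higher, UNC5D, NTNG1 and SEMA6A (1.61, adjusted p = 0.00658; 0.246 without control replicate 1), and 2 were lower, the neuropilin NRP1 (-2.25, adjusted p = 0.00416; 0.0774 without sevoflurane replicate 1) and SEMA5B (-2.15, adjusted p = 0.0188; 0.174 without it). SEMA6A, a transmembrane semaphorin, had 16.7, 29.3 and 54.3 CPM in RORB CUX2 neurons and 7.14, 10.8 and 14.2 CPM in other glutamatergic neurons, with no overlap. ROBO2, a Slit receptor, had 964, 2100 and 4311 CPM in RORB CUX2 neurons and 1012, 1151 and 1800 CPM in other glutamatergic neurons and was not called (adjusted p = 0.531; 0.0332 without sevoflurane replicate 1).

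Receptors and channels differed in single members. Of 22 glutamate receptor subunits tested, 0 were higher and 1 was lower, against 0.523% and 1.05% of all genes tested. The lower one was GRIA1, the GluA1 subunit of AMPA receptors. It had 418, 322 and 399 CPM in RORB CUX2 neurons and 2409, 734 and 1731 CPM in other glutamatergic neurons (log2 fold change -1.999, SE 0.28, edgeR adjusted p = 0.00434). The GRIA1 groups did not overlap, and the RORB CUX2 neurons of control replicate 3 held 580 CPM against 1968 CPM in other glutamatergic neurons there. Thinned to 3000 UMIs, GRIA1 was found in 52.4%, 51.9%, 66.3% and 70.6% of RORB CUX2 neurons of sevoflurane replicates 1 and 3 and control replicates 1 and 3, against 77.8% to 97.8% of other glutamatergic neurons over the 6 libraries. Of 15 monoamine, acetylcholine and cannabinoid receptor genes, HTR2A was higher and the serotonin receptors HTR4 and HTR7 were lower. HTR4 had 27.8, 44.2 and 56.3 CPM in RORB CUX2 neurons and 141, 117 and 146 CPM in other glutamatergic neurons, with no overlap (-1.56, SE 0.21, edgeR adjusted p = 0.00366). HTR7 was lower with a log2 fold change of -1.19 (adjusted p = 0.0318; 0.0774 without sevoflurane replicate 1). Of 32 potassium channel subunits, KCNH5, a channel of the ether-a-go-go family, was higher (1.67, adjusted p = 0.0149; 0.157 without sevoflurane replicate 1) and KCNN2, a small-conductance calcium-activated channel, was lower (-1.47, adjusted p = 0.00451; 0.0532 without it). Of 12 GABA-A receptor subunits, 24 sodium, calcium and HCN channel genes and 20 neuropeptide genes and receptors, 0 were called by edgeR at an adjusted p under 0.05 and 0 by DESeq2. An unadjusted edgeR p under 0.05 was found for 4 genes of each of these 3 lists, against 1361 of all 14715 genes tested.

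The second comparison set RORB CUX2 neurons against the 5050 other glutamatergic neurons with at least 3 UMIs of HS3ST4. Of these, 2306 also held at least 3 ZBTB20 UMIs, so the class is not one of deep-layer neurons alone. In sevoflurane replicates 1 and 3 and control replicate 1 they were 580 of 865, 17 of 759 and 371 of 1044. The rule limited ZBTB20 in RORB CUX2 neurons alone here too. In the same 3 libraries 39 genes (0.287% of 13592 tested) were higher and 84 (0.618%) were lower in RORB CUX2 neurons, 123 in all (0.905%). Without sevoflurane replicate 1 the fit called 77 genes, without sevoflurane replicate 3 684 and without control replicate 1 267. COL5A2, HHAT and ROS1 were again higher, with log2 fold changes of 2.79, 2.52 and 2.22 (edgeR adjusted p of 0.0369, 0.0101 and 0.00965). KCNK13, a potassium channel of the tandem-pore family, had 16.7, 112 and 137 CPM in RORB CUX2 neurons and 4.54, 16.7 and 29.6 CPM in HS3ST4 neurons (2.39, SE 0.24, adjusted p = 0.0101). ADAMTS14, a procollagen-cleaving protease, had 22.3, 140 and 59.2 CPM in RORB CUX2 neurons and 9.97, 19.1 and 11.6 CPM in HS3ST4 neurons (2.38, SE 0.31, adjusted p = 0.0236), and the groups did not overlap. PLA2G4A, a cytosolic phospholipase, was the sixth named (1.99, adjusted p = 0.0369; 0.0716 without sevoflurane replicate 1). Control replicate 3, outside the fit, had 5.68 CPM of KCNK13 and of ADAMTS14 in RORB CUX2 neurons, from 1 UMI each.

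Lower than in HS3ST4 neurons were TNFAIP8L3 (log2 fold change -3.54, edgeR adjusted p = 0.00825), ABI3BP (-3.55, adjusted p = 0.00965), ROR1 (-3.22, adjusted p = 0.00965), FEZF2 (-3.50, adjusted p = 0.0239), SLC24A3 (-3.57, adjusted p = 0.0397) and PIEZO2 (-3.23, adjusted p = 0.0482). FEZF2, SLC24A3 and PIEZO2 lost the call without sevoflurane replicate 1, with adjusted p of 0.05999, 0.0673 and 0.203. CUX1 and PLCH1 were the called members of the upper-layer and layer 4 lists that were higher, and MDGA1 and CDH9 were lower, as against the other glutamatergic neurons as a whole. Of 12 corticothalamic and layer 6b genes tested besides HS3ST4, 2 were lower, FEZF2 and the synaptotagmin SYT6. HS3ST4, a gene of this list, chose the HS3ST4 neurons. Genes that go with HS3ST4 from cell to cell were thus drawn into that class with it, and the part of this choice in the differences was not tested. Of 17 hippocampal genes 3 were lower (ZFPM2, ETV1 and MAN1A1), with a median of -1.25 against -0.03 over all genes tested. When RORB CUX2 neurons also had to meet the limits set on the HS3ST4 neurons, sevoflurane replicate 1 fell out with 12 cells left, and 19 genes were called.

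The third comparison set RORB CUX2 neurons against the 4896 other glutamatergic neurons with at least 3 ZBTB20 UMIs, the transcription factor of hippocampal pyramidal and granule neurons. ZBTB20 thus chose both classes, with at most 1 UMI in RORB CUX2 neurons. Genes that go with ZBTB20 from cell to cell were held down in the one and drawn into the other, and the part of this choice in the differences was not tested. In the same 3 libraries 7 genes (0.0603% of 11617 tested) were higher and 30 (0.258%) were lower, 37 in all (0.318%). Sevoflurane replicate 3 gave 31 cells to the ZBTB20 class, against 1216 in sevoflurane replicate 1 and 732 in control replicate 1. Once marked doublets were removed, 12 of the 31 remained, against 1144 and 674 in the other 2 libraries, so most of the ZBTB20 profile of sevoflurane replicate 3 came from marked doublets; what part they have in the result was not tested. Without sevoflurane replicate 3, edgeR called 1051 genes. HHAT was higher here too (2.74, SE 0.32, adjusted p = 0.0417). RARB, a retinoic acid receptor, had 39.0, 66.3 and 89.9 CPM in RORB CUX2 neurons and 10.2, 11.2 and 11.3 CPM in ZBTB20 neurons, with no overlap (2.52, SE 0.32, adjusted p = 0.0417). MGAT5B, a glycosyltransferase enriched in brain, was the other named gene that was higher (1.43, adjusted p = 0.0498). EYA1 (-4.41, adjusted p = 0.0187), PIEZO2 (-4.27, adjusted p = 0.0493), SLC24A3 (-4.24, adjusted p = 0.0478), IQGAP2 (-3.75, adjusted p = 0.0417), ABI3BP (-3.56, adjusted p = 0.0108) and TNFAIP8L3 (-3.52, adjusted p = 0.0417) were lower. Without sevoflurane replicate 1, edgeR called 0 genes in this comparison (962 at an unadjusted p under 0.05), whereas DESeq2 on the 3 libraries called 347. The 9 genes named here had edgeR adjusted p of 0.191 to 0.315 without sevoflurane replicate 1. Without control replicate 1 edgeR called 8 genes, with EYA1 and ABI3BP among them, and the other 7 named genes had adjusted p of 0.0932 to 0.223. The 3 comparisons share the RORB CUX2 profiles and part of the other neurons, so a gene named in several of them is not repeated evidence.

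Markers of other cell types differed between the classes in some libraries. The summed level of 11 GABAergic markers was 317, 221 and 188 CPM in RORB CUX2 neurons of sevoflurane replicates 1 and 3 and control replicate 1, against 146, 256 and 202 CPM in other glutamatergic neurons and 7745 to 11544 CPM in GABAergic neurons over the 6 libraries. Of these 11 markers, 7, 3 and 5 were at 0 in the RORB CUX2 neurons of the 3 libraries. Their sum was over that of the other neurons in sevoflurane replicate 1 and reached 1057 CPM in RORB CUX2 neurons of control replicate 3, against 242 CPM in other glutamatergic neurons there. ERBB4 alone gave 245 CPM of the sum in RORB CUX2 neurons of sevoflurane replicate 1 and 869 CPM in those of control replicate 3. Of 37 tested markers of GABAergic neurons, astrocytes, oligodendrocytes, oligodendrocyte precursors, microglia and vascular cells, 0 were called against the other glutamatergic neurons by edgeR and 0 by DESeq2, and 7 had an unadjusted p under 0.05, against 1361 of all 14715 genes. The median log2 fold change was -0.63 over 7 oligodendrocyte markers, of which 6 were negative, and 0.47 over 4 microglia markers, all positive. Summed microglia markers stayed at 11.1 to 43.4 CPM in RORB CUX2 neurons of the 3 libraries, against 18.0 to 26.7 CPM in other glutamatergic neurons. The part of other cell types in the results above was not tested. Doublets were scored with scrublet and kept; 42 of the 499 RORB CUX2 neurons (8.42%) were marked, against 4.59% to 6.69% of all barcodes per library. Of the 499 cells, 329 (65.9%) also met the limits set for the other glutamatergic neurons, and 168 fell under the 3 UMIs of SLC17A7, SLC17A6, SV2B, NEUROD2 and NEUROD6, so the levels of these genes cannot be compared between the classes.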

How the data were processed

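The 6 libraries were used as deposited: unnormalised whole-number UMI counts, written by Cell Ranger 6.1.1 per the file headers. CASAVA 1.8, Cell Ranger and Seurat are named per the submitters' processing notes; genome build and annotation: not given in the sources used here. Of 29320 features, 15188 carried a symbol in the file and 1346 took one from a gene name table. Of 399 listed genes 390 were matched, 10 of them through that table; MOBP was not among the features, so the glial limit used 4 of its 5 genes.

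Barcodes were assigned to classes by UMI limits, with groups from the labels. GABAergic neurons held at least 3 UMIs of GAD1 and GAD2. Scrublet (scanpy 1.11.5) scored doublets, with the median of the automatic thresholds (0.213) applied to every library. Counts were summed per library and class, and libraries with at least 20 cells of each class were tested with edgeR 4.0.16 (R 4.3.3): TMM factors, filterByExpr, quasi-likelihood F test, Benjamini-Hochberg over all genes tested. The library was a block, since both profiles of a pair come from the same library. Library totals lay between 41164947 and 47886816 UMIs. CPM are UMIs per 1000000. Detection shares used cells thinned to 3000 UMIs, with at most 400 cells per other class and library. The fitting code was tested on simulated data.

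Named genes were the called genes with a symbol, an average log2 CPM from 5 upwards and 1 sign in every library, by size of change (12 per direction in the main comparison, 6 in the others), plus called list members (up to 4 per list and direction) and up to 2 not called per list; TBR1, LAMP5 and the library-dependent genes named beyond this were picked after their values were seen. The members and all lists were chosen with earlier results of these data known. Alternatives were RLE factors, DESeq2 1.42.0, no filter on low counts, no block, other limits on cells and leaving out each library; a limit of at most 1 RORB UMI on the other neurons was added after seeing the data.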

Additional observations from a re-analysis of the deposited data

How the results depend on the processing

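The number of RORB CUX2 neurons was 457 to 539 without marked doublets, with minimums of 2000 or 5000 UMIs or with no ZBTB20 limit, 337 with at least 5 RORB UMIs and 329 under the limits of the other glutamatergic neurons. Called genes are given below for the comparisons with other glutamatergic, HS3ST4 and ZBTB20 neurons, in that order, against 231, 123 and 37 in the fits reported. Leaving out 1 library at a time gave 108 to 585, 77 to 684 and 0 to 1051. Without the library block, which ignores the pairing of the classes within a library, 0, 1 and 18 genes were called (939, 1047 and 1522 at an unadjusted p under 0.05). No filter on low counts gave 725, 788 and 831, and a minimum of 10 cells per profile, which adds control replicate 3, gave 374, 351 and 367. In 3 settings sevoflurane replicate 1 also dropped out, which alone gave 108, 77 and 0: at least 5 RORB UMIs gave 148, 80 and 0 (964 unadjusted in the last), a minimum of 5000 UMIs gave 170, 58 and 0 (946 unadjusted), and RORB CUX2 neurons held to the other neurons' limits gave 418, 19 and 63. DESeq2 called 271 and 347 against HS3ST4 and ZBTB20 neurons, and a lower gate of 2 UMIs gave 6 against ZBTB20 neurons. Other neurons limited to 1 RORB UMI, added after seeing the data, gave 281 against HS3ST4 neurons. Against ZBTB20 neurons that limit gave 1110 and doublet removal 655, but sevoflurane replicate 3 dropped out of both fits with 14 and 12 ZBTB20 cells, and leaving it out alone gave 1051. RLE factors gave 238, 140 and 37. All 53, 12 and 9 named called genes kept their sign under every alternative. This was largely fixed beforehand for genes named by size of change, which had to have 1 sign in every library of the fit. They were 12 per direction of the 53, and all of the 12 and 9. The rest of the 53 were called list members without that condition, and the alternatives reuse largely the same cells. All 53 lost the call without the block, 23 without sevoflurane replicate 1, 4 without sevoflurane replicate 3 and 8 without control replicate 1. The causes were not tested.

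The counts rest on 3 libraries, of which sevoflurane replicate 1 has 21 RORB CUX2 neurons with 179544 UMIs in all, so that 1 UMI there is worth 5.57 CPM. Genes near that level could not be resolved at this depth.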

Other observations

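A few genes, chosen here after their values were seen, were high in RORB CUX2 neurons of sevoflurane replicate 1. HTR2C, the serotonin 2C receptor, reached 1287 CPM in the 21 RORB CUX2 neurons of sevoflurane replicate 1, against 74.7 CPM in other glutamatergic neurons there, and 3.85 CPM in RORB CUX2 neurons of sevoflurane replicate 3. At least 3 HTR2C UMIs were found in 3 of those 21 cells, none of which held 3 TSHZ2 UMIs, and 16 of the 21 held no HTR2C UMI. SULF1, an extracellular sulfatase that was not counted per cell, had 123 CPM in RORB CUX2 neurons of sevoflurane replicate 1 and 2.40 CPM in those of sevoflurane replicate 3, and 1.97 and 45.5 CPM in those of control replicates 1 and 3. TRPM3, likewise summed over all cells, had 1816 and 346 CPM in RORB CUX2 neurons of sevoflurane replicates 1 and 3 and 414 and 1977 CPM in those of control replicates 1 and 3. Neither HTR2C (edgeR adjusted p = 0.911) nor TRPM3 (adjusted p = 0.980) was called against other glutamatergic neurons over the 3 libraries.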
